A study of Mus musculus with 30 samples.

Results

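Muscle satellite cells isolated 60 h after injury were compared with those of uninjured muscle, using 4 RNA-seq libraries, 2 per group, out of the 30 libraries in 15 groups of the whole series. The libraries were chosen by their labels alone. All came from hind limb muscle of C57BL/6 mice, an inbred strain, with no transgene or mutation named. The 60 h cells came from limbs injected with barium chloride, a salt that kills muscle fibres and spares satellite cells, and the uninjured cells from limbs with no treatment. Per the labels, the animals were first perfused with the fixative paraformaldehyde, and the cells were sorted afterwards. Ages, the surface markers of the sort, the hour of day and the number of animals per library are not given, and no label says that the libraries of a group are separate animals. The p-values therefore measure only the spread between these samples.

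Satellite cells are the resident stem cells of skeletal muscle. In resting muscle they lie between the fibre and its basement membrane in a reversible cell cycle arrest called quiescence, which Notch signalling and the transcription factor Pax7 help to maintain. After injury they re-enter the cell cycle, divide as myoblasts under Myod1, and in part go on to differentiate under Myog and fuse into new fibres. The comparison asks how the transcriptome of cells in the middle of this response differs from that of quiescent cells.

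The 60 h libraries held 26.6 and 28.5 M counts and the uninjured ones 13.5 and 21.4 M. Gene models that overlap ribosomal RNA, cytoplasmic or mitochondrial, took 28.3% and 31.2% of counts at 60 h, against 49.7% and 37.3% in uninjured cells, and 4.26% to 11.6% in the libraries of 0.5 to 32 h. These 361 models were removed, which left 19.1 and 19.6 M counts at 60 h, against 6.79 and 13.4 M in uninjured cells. Levels are given in CPM, counts relative to the library's remaining counts after scaling. Across the 2000 most variable genes, Pearson's r of log2 CPM was 0.914 between the 60 h libraries and 0.844 between the uninjured ones, and 0.183 to 0.253 across the groups. In bulk samples, fewer cells of a type and less RNA per cell cannot be told apart.

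Of 21576 genes tested, 9529 (44.2%) differed between 60 h and uninjured cells, 4861 higher (22.5%) and 4668 lower (21.6%) at 60 h, at an adjusted p under 0.05. Over all genes tested, the log2 fold change had a median of -0.107, which was 0 when the ribosomal RNA models were kept. The 2 groups did not overlap in 36.5% of genes on the higher side and 39.3% on the lower side. Counts of members of each gene list are to be read against these shares.

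Markers of other cells were measured beside those of satellite cells. Of 17 macrophage and monocyte markers, 13 were higher at 60 h, and their summed level was 302 and 70.3 CPM at 60 h, against 7.63 and 5.87 CPM in uninjured cells. Lyz2, the lysozyme of macrophages, was at 159 and 32.5 CPM at 60 h, against 2.20 and 0.921 CPM in uninjured cells, and Adgre1, Itgam, C1qa and C1qb had no count in uninjured cells. The first 60 h library was thus several times above the second in this list, and the count of 13 became 6 without that library, and 6 and 3 without uninjured library 1 and 2. The summed level of 15 endothelial markers was 31.4 and 35.4 CPM at 60 h, against 85.4 and 127 CPM in uninjured cells, with 3 members lower, 1 higher and 11 not called. Most of that difference lay in Tek, at 2.57 and 2.80 CPM at 60 h, against 37.0 and 73.4 CPM in uninjured cells, and Eng, at 7.27 and 9.46 CPM at 60 h, against 33.3 and 21.5 CPM in uninjured cells. The summed level of 15 fibro-adipogenic and fibroblast markers was 862 and 866 CPM, against 2071 and 1839 CPM, and that of 12 pericyte and smooth muscle markers 915 and 1006 CPM, against 2828 and 2399 CPM. The last list holds Notch3 and Des, and the list before it Col3a1 and Gsn, which satellite cells also express. Most of the difference in the pericyte sum lay in Notch3, at 141 and 146 CPM at 60 h, against 2267 and 2012 CPM in uninjured cells. Of those 12 markers, 6 were lower, 2 higher and 4 not called. Pdgfra, the defining fibro-adipogenic marker, was at 1.02 and 0.628 CPM at 60 h and at 0 in uninjured cells.

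The bar plot of list members shows lists of cell division, protein turnover and metabolism on the side of higher calls, and those of quiescence, clock and signalling on the side of lower ones.

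**Figure D1:**
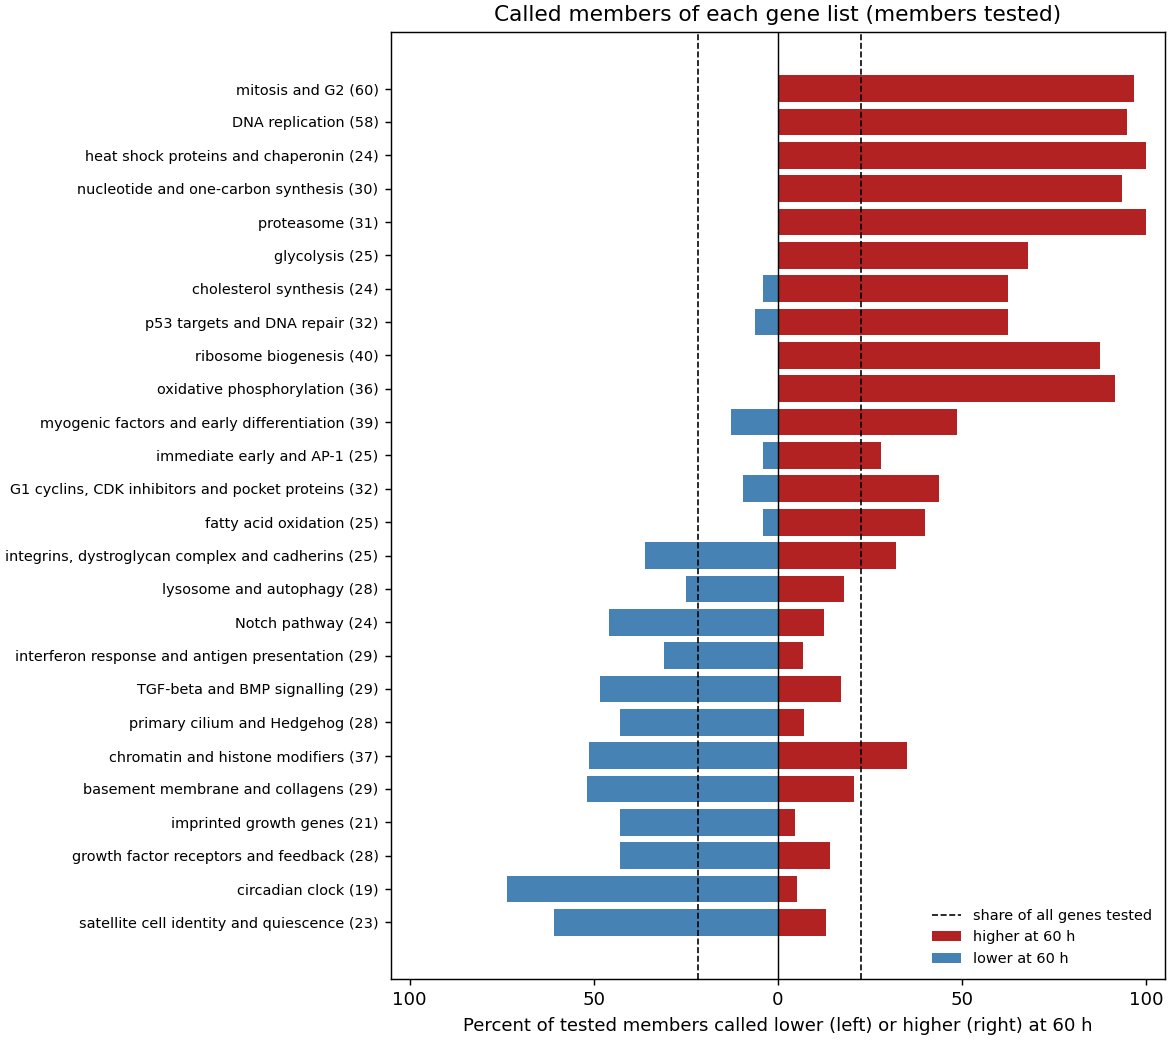
Percent of the tested members of each gene list called lower (left, blue) or higher (right, red) at 60 h than in uninjured cells, with the number tested in brackets; dashed lines mark the shares over all genes, 21.6% lower and 22.5% higher. All members of the proteasome and of the heat shock and chaperonin lists were called higher, and 73.7% of the circadian clock list lower.

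Genes that mark satellite cells or keep them quiescent were mostly lower at 60 h. Of 23 members of this list, 14 fell and 3 rose, with a median log2 fold change of -2.43. Pax7, the transcription factor that defines satellite cells (chr4:139737062-139833528, minus strand, GRCm38), was at 177 and 168 CPM at 60 h, against 2197 and 1925 CPM in uninjured cells. It was far lower in both 60 h libraries (log2 fold change -3.58 ± 0.80, adjusted p = 0.00575), though its call was lost when the fit held all 18 libraries of the time course (adjusted p = 0.0625). Calcr, the calcitonin receptor that holds satellite cells in quiescence, was at 15.7 and 18.6 CPM at 60 h, against 185 and 223 CPM in uninjured cells. The groups were an order of magnitude apart (log2 fold change -3.57 ± 0.35, adjusted p = 0.000129). Chrdl2, a secreted BMP antagonist, was at 13.3 and 12.5 CPM at 60 h, against 271 and 326 CPM in uninjured cells, and Spry1, an inhibitor of receptor tyrosine kinase signalling needed for the return to quiescence, at 19.4 and 17.8 CPM at 60 h, against 168 and 199.8 CPM in uninjured cells. Both fell, with log2 fold changes of -4.53 and -3.31, with almost the same level in both 60 h libraries. The chemokine receptor Cxcr4, the FGF receptor Fgfr4, the transcription factor Foxo3 and the TGF-beta co-receptor Tgfbr3 fell too, with log2 fold changes of -3.35, -2.34, -2.43 and -3.82.

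Several genes used to recognise satellite cells did not move with Pax7. Myf5, which marks committed satellite cells, was at 238 and 205 CPM at 60 h, against 233 and 537 CPM in uninjured cells, so the 60 h values lay near the lower uninjured one (adjusted p = 0.162). The surface protein Cd34 was at 146 and 168 CPM at 60 h, against 135 and 284 CPM in uninjured cells, and the groups overlapped (adjusted p = 0.309). Vcam1, a cell adhesion receptor used for sorting, was at 257 and 289.6 CPM at 60 h, against 173 and 158 CPM in uninjured cells, and Cdh15, M-cadherin, at 224 and 276 CPM at 60 h, against 179 and 157 CPM in uninjured cells. Neither passed the threshold, although both 60 h libraries lay above both uninjured ones for each gene. The 3 members that rose were surface proteins: the syndecans Sdc4 and Sdc3 and the laminin receptor subunit Itga7. Sdc4 was at 1624 and 1871 CPM at 60 h, against 738 and 936 CPM in uninjured cells (log2 fold change 1.06 ± 0.34, adjusted p = 0.0302), and none of the 3 kept its call when any of the 4 libraries was left out.

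Of 24 Notch pathway genes, 11 fell and 3 rose, with a median log2 fold change of -0.55. The receptor Notch1 was at 265 and 267 CPM at 60 h, against 1084 and 816 CPM in uninjured cells, Notch2 at 175 and 209 CPM at 60 h, against 639.8 and 622 CPM in uninjured cells and Notch3 at 141 and 146 CPM at 60 h, against 2267 and 2012 CPM in uninjured cells. All 3 receptors were lower in both 60 h libraries, Notch3 by the largest factor (log2 fold change -3.90 ± 0.70, adjusted p = 0.0019). Notch3 is also a marker of pericytes. It made up most of the summed level of their list in uninjured cells, so that sum is no separate measure of them. The part of pericytes in the change of Notch3 was not tested. Heyl, a transcriptional repressor induced by Notch, was at 126 and 103 CPM at 60 h, against 751 and 753 CPM in uninjured cells (log2 fold change -2.72 ± 0.40, adjusted p = 0.000685), and the related Hey1 and the ligand Jag1 fell with log2 fold changes of -2.19 and -1.89. Hes6, which opposes Hes1 and promotes myogenesis, went the other way, at 200.3 and 192 CPM at 60 h, against 21.5 and 23.7 CPM in uninjured cells (log2 fold change 3.11 ± 0.32, adjusted p = 0.000147). The ligands Dll1 and Dll4, the repressor Hes1 and the DNA-binding effector Rbpj were not called. The count of 11 became 6 and 7 without the first and the second 60 h library.

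Of 39 myogenic factors and early differentiation genes tested, 19 rose and 5 fell, with a median log2 fold change of 1.48. Myod1, which drives the myoblast state (chr7:46376474-46379099, plus strand, GRCm38), was at 484 and 473 CPM at 60 h, against 52.2 and 62.9 CPM in uninjured cells (log2 fold change 3.06 ± 0.51, adjusted p = 0.00127). The replicates were close in both groups and far apart between them, and the call was lost with all 18 libraries in the fit (adjusted p = 0.17). Myog, which starts terminal differentiation, was at 155 and 168 CPM at 60 h, against 39.3 and 11.6 CPM in uninjured cells (log2 fold change 2.68 ± 0.84, adjusted p = 0.0305). Both 60 h libraries were well above both uninjured ones, which differed from each other, and the call was lost when either 60 h library or uninjured library 2 was left out. Mymk, a membrane protein needed for myoblast fusion, was at 29.4 and 39.6 CPM at 60 h, against 6.94 and 0.518 CPM in uninjured cells (adjusted p = 0.0843). It was higher in both 60 h libraries, with the uninjured pair more than 10-fold apart.

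The acetylcholine receptor, the ion channel through which nerves excite muscle, changed by large factors. Chrna1, its alpha subunit, was at 789 and 898 CPM at 60 h, against 58.1 and 51.9 CPM in uninjured cells (log2 fold change 3.94 ± 0.25, adjusted p = 4.36e-05). Chrnd, the delta subunit, was at 139 and 141 CPM at 60 h, against 4.74 and 1.73 CPM in uninjured cells, and Chrng, the gamma subunit of the fetal receptor, at 69.9 and 69.9 CPM at 60 h, against 0.925 and 0 CPM in uninjured cells. Log2 fold changes were 5.50 ± 0.49 for Chrnd and 7.61 ± 1.08 for Chrng, with closely matched 60 h libraries. Des, the intermediate filament protein of muscle, was at 601 and 694 CPM at 60 h, against 324 and 238 CPM in uninjured cells (log2 fold change 1.20 ± 0.35, adjusted p = 0.0213), and Tnnt2, the troponin T of embryonic muscle, rose by 6.90 ± 1.04 on the log2 scale. The fusion factor Mymx, the fast myosin light chains Myl1 and Mylpf and skeletal actin Acta1 rose as well. Mature fibre genes did not rise together: of 13 tested markers 5 rose and 1 fell, and the list's summed level was 213 and 242 CPM at 60 h, against 291 and 183 CPM in uninjured cells. Id1, an inhibitor of Myod1-type factors, was also at 84.1 and 111 CPM at 60 h, against 20.7 and 15.1 CPM in uninjured cells (log2 fold change 2.45 ± 0.39, adjusted p = 0.00099), and Tcf4, a binding partner of those factors, fell by 1.99 on the log2 scale.

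**Figure D2:**
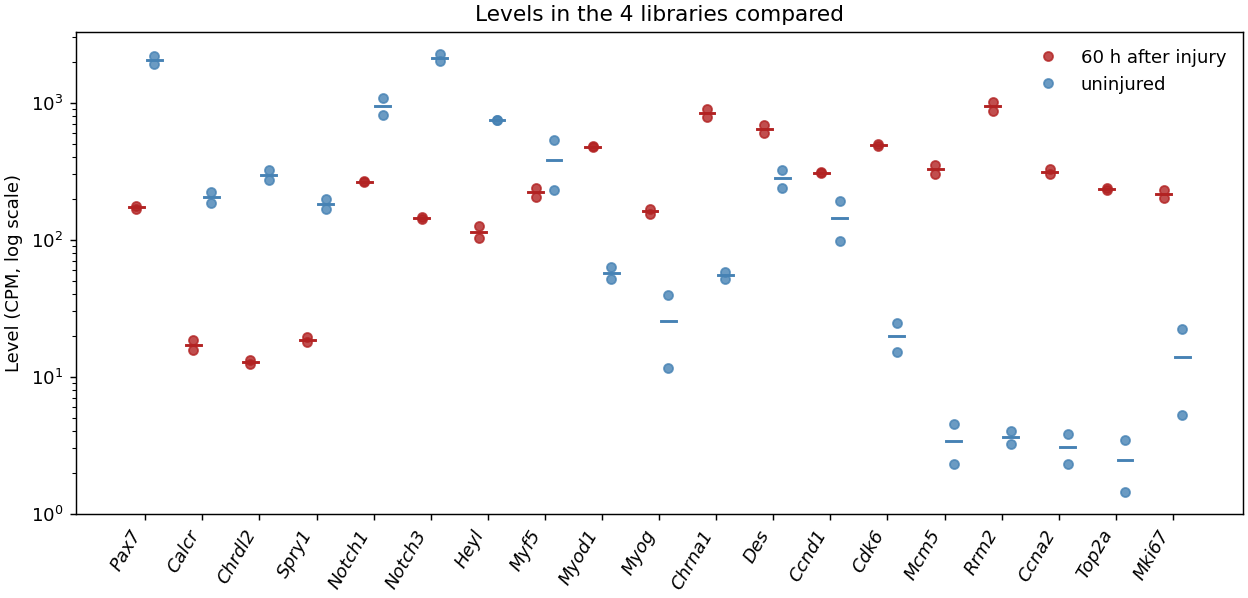
Levels of 19 genes in CPM on a log scale, with 1 point per library and a bar at each group's mean; 60 h in red, left of uninjured in blue. Pax7, Calcr, Notch3 and Heyl sit far lower at 60 h and the cell division genes from Cdk6 to Mki67 far higher, while the values of Myf5 overlap.

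Nearly all genes of the DNA replication and mitosis lists were higher at 60 h. Of 58 DNA replication genes, 55 rose and none fell, with a median log2 fold change of 3.54; Gins3, Orc1 and Rfc1 were not called. Of 60 genes of mitosis and G2, the phase before it, 58 rose and none fell, with a median of 6.15; Cdc25b and Pttg1 were not called. Promoter sequences of 4 of these genes are printed here because binding sites of E2F factors and the cell cycle gene homology region (CHR), the DNA elements known to time S phase and mitotic genes, lie in such windows. Each window runs from 250 bases before to 50 after the start of the gene, from RefSeq (GRCm38.p6), 5′ to 3′ on the gene's strand. The first pair has the smallest adjusted p of the replication genes whose window holds an E2F word, and the second pair that of the mitosis genes whose window holds the CHR word; capitals mark those words on either strand.
Mcm5: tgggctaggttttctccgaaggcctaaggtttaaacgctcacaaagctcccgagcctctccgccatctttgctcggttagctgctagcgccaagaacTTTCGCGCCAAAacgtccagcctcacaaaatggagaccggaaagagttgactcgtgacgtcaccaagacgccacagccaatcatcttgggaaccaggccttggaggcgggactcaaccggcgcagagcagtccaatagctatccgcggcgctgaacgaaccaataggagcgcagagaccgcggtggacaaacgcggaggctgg
Rfc3: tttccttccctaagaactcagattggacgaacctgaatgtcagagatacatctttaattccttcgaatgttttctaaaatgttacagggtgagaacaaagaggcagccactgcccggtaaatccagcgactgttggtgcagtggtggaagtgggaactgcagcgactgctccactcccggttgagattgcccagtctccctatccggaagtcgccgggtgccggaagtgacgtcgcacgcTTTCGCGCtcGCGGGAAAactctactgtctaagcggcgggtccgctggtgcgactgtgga
Ccnb2: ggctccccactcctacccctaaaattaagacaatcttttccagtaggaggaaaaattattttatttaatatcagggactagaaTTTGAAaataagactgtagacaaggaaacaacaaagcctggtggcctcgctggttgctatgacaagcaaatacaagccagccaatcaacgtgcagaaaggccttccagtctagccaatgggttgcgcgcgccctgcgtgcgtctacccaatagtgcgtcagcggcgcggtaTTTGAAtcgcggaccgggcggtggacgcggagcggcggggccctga
Cks1b: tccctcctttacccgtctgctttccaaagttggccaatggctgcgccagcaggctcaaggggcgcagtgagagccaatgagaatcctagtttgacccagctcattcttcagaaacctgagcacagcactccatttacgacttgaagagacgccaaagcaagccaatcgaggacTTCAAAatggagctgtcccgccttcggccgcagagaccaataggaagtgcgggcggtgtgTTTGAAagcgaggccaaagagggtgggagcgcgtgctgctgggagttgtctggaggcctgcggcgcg

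The windows lie at chr8:75109259-75109558 on the plus strand for Mcm5, and on the minus strand at chr5:151651159-151651458 for Rfc3, chr9:70421505-70421804 for Ccnb2 and chr3:89418242-89418541 for Cks1b. The E2F words searched were TTTCCCGC, TTTCGCGC, TTTGCCGC and TTTGGCGC, and the CHR word TTTGAA. In Mcm5 the stretch in capitals holds 2 overlapping E2F words, one on each strand. An E2F word lay in 19 of 57 windows of replication genes (33.3%), in 5 of 53 windows of mitosis genes (9.43%) and in 3.59% of the 15651 windows of all genes tested. The CHR word lay in 40 of 53 mitosis windows (75.5%), in 8 of 57 replication windows (14%) and in 12.7% of all. CCAAT, the binding word of NF-Y, which often accompanies the CHR, lay in 73.6% of mitosis windows, 61.4% of replication windows and 37.2% of all. It also lay in 16 of 21 windows of circadian clock genes (76.2%), none of which held the CHR word. Windows were found for 47 of the 58 replication and 51 of the 60 mitosis genes, some with more than 1 start. These shares describe letters in a window and show no binding.

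Among replication genes, Mcm5, a subunit of the helicase that opens DNA, was at 305 and 354 CPM at 60 h, against 4.51 and 2.30 CPM in uninjured cells. Rrm2, the subunit of ribonucleotide reductase made in S phase, was at 879 and 1007 CPM at 60 h, against 3.24 and 4.03 CPM in uninjured cells. Both were low in uninjured cells and far higher in both 60 h libraries, with log2 fold changes of 6.64 ± 0.52 for Mcm5 and 8.00 ± 0.49 for Rrm2. Tyms, which makes thymidylate, was at 207 and 199 CPM at 60 h, against 15.6 and 11.1 CPM in uninjured cells (log2 fold change 3.93 ± 0.28, adjusted p = 5.76e-05). Of the clamp loader that places PCNA on DNA, Rfc3, whose promoter is printed above, was at 69.6 and 51.9 CPM at 60 h, against 4.28 and 4.66 CPM in uninjured cells. Rfc3, Rfc4 and Rfc2 rose with log2 fold changes of 3.76, 4.25 and 3.01, while the large subunit Rfc1 was not called.

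Among mitotic genes, Ccnb2, a B-type cyclin of mitotic entry, was at 158 and 152 CPM at 60 h, against 0.925 and 1.21 CPM in uninjured cells (log2 fold change 7.14 ± 0.33, adjusted p = 1.31e-05). Cks1b, a small partner of cyclin-dependent kinases, was at 251 and 250.4 CPM at 60 h, against 11.2 and 11.2 CPM in uninjured cells (log2 fold change 4.48 ± 0.25, adjusted p = 3.46e-05), with equal replicates in each group. Ccna2, the cyclin of S phase and G2, was at 327 and 301 CPM at 60 h, against 3.82 and 2.30 CPM in uninjured cells, and Top2a, which untangles replicated DNA, at 229 and 240 CPM at 60 h, against 3.47 and 1.44 CPM in uninjured cells. Neither gene's 60 h and uninjured values came near each other, with log2 fold changes of 6.72 and 6.65. Mki67, the proliferation marker, was at 203 and 232 CPM at 60 h, against 22.4 and 5.30 CPM in uninjured cells (log2 fold change 4.00 ± 0.72, adjusted p = 0.00198), with uninjured library 1 above uninjured library 2. The spindle motor Kif11 and the cytokinesis factor Ect2 rose by 6.10 ± 0.39 and 7.40 ± 0.46 on the log2 scale.

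Some division genes had no count at all in either uninjured library. Aurka, the kinase that builds spindle poles, was at 119.7 and 111 CPM at 60 h and had no count in uninjured cells. Set against a floor of 3 counts in the uninjured libraries together, this is at least 1000-fold higher. By the same floor, the microtubule depolymerase Kif2c was at least 667-fold, the kinetochore protein Nuf2 at least 649-fold, Pimreg at least 494-fold, the spindle protein Dlgap5 at least 364-fold and the chromosome motor Kif4 at least 354-fold higher. The atypical E2F repressor E2f7 was at least 717-fold higher. These bounds cover counting error only.

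Regulators of the step from quiescence into the cycle changed less uniformly. Of 32 G1 cyclins, inhibitors and pocket proteins, 14 rose and 3 fell, with a median log2 fold change of 0.80. Cdk6, the kinase partner of D-type cyclins, was at 503 and 483 CPM at 60 h, against 24.5 and 15.2 CPM in uninjured cells, and Cdk4 at 632 and 639.5 CPM at 60 h, against 118 and 91.6 CPM in uninjured cells. Both rose (4.64 ± 0.34 and 2.60 ± 0.24 on the log2 scale), as did Tfdp1, the dimer partner of E2F (3.52 ± 0.28), and E2f4 (1.99 ± 0.24). The D-type cyclin Ccnd1 was at 310.5 and 307 CPM at 60 h, against 193 and 98.2 CPM in uninjured cells, a smaller change (log2 fold change 1.09 ± 0.33, adjusted p = 0.0227) whose call was lost without either 60 h library or uninjured library 2. Cdkn1a, the p21 inhibitor that p53 and Myod1 induce, was at 436 and 477 CPM at 60 h, against 14.7 and 8.23 CPM in uninjured cells. It was higher in both 60 h libraries (log2 fold change 5.33 ± 0.84, adjusted p = 0.00103). Its level had been higher still at 8 h, at 1420 and 1337 CPM. Cdkn1b, the p27 inhibitor of quiescent cells, was at 20.9 and 23.9 CPM at 60 h, against 60.7 and 71.6 CPM in uninjured cells, lower in both 60 h libraries (log2 fold change -1.56 ± 0.26, adjusted p = 0.00144). Cdkn1c, the p57 inhibitor, was at 63.4 and 65.4 CPM at 60 h, against 90.7 and 27.3 CPM in uninjured cells, and the 60 h values lay between the uninjured ones (adjusted p = 0.921). The kinase-binding protein Cables1 fell by 4.10 on the log2 scale. The count of 14 became 9 without uninjured library 2.

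DNA repair genes and p53 targets rose in 20 of 32 cases, fell in 2 and had a median log2 fold change of 1.92. The checkpoint kinase Chek1 was at 47.3 and 47.4 CPM at 60 h, against 4.16 and 3.28 CPM in uninjured cells (log2 fold change 3.68 ± 0.43, adjusted p = 0.000253), and the Fanconi anaemia core protein Fanca at 28.6 and 24.2 CPM at 60 h, against 3.12 and 2.02 CPM in uninjured cells (log2 fold change 3.38 ± 0.40, adjusted p = 0.000247). Both were several-fold higher in both 60 h libraries. The p53 targets Mdm2, Bax, Bbc3, Ccng1, Phlda3, Gdf15 and Cdkn1a rose, and Sesn2, Zmat3 and Ei24 were not called. Sesn1, a p53 and FoxO target that restrains mTORC1, fell to 16.3 and 15.8 CPM at 60 h, against 122 and 98.5 CPM in uninjured cells (log2 fold change -2.78 ± 0.29, adjusted p = 0.000147). The other gene that fell was Mdm4.

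Most genes of ribosome biogenesis and of nucleotide and one-carbon metabolism were higher. Ribosome biogenesis genes rose in 35 of 40 cases and fell in none (median log2 fold change 1.88), but the count of rises was 7 when the fit held all 18 libraries of the time course. Npm1, the abundant nucleolar chaperone, was at 1790 and 1927 CPM at 60 h, against 232 and 289 CPM in uninjured cells (log2 fold change 2.83 ± 0.26, adjusted p = 9.91e-05), and Bop1, which processes the large subunit's RNA, at 174 and 210.5 CPM at 60 h, against 32.96 and 32.1 CPM in uninjured cells (log2 fold change 2.56 ± 0.34, adjusted p = 0.000429). Both genes kept their calls with all 18 libraries, and the nucleolar proteins Nhp2 (log2 fold change 2.45 ± 0.29) and Rrp9 (log2 fold change 2.70 ± 0.37) did not. Of 30 nucleotide and one-carbon genes, 28 rose and none fell (median 2.62). Asns, asparagine synthetase, was at 114 and 115 CPM at 60 h and at 0 in uninjured cells, at least 992-fold higher. Phgdh, which opens serine synthesis, was at 511 and 565 CPM at 60 h, against 16.1 and 8.35 CPM in uninjured cells (log2 fold change 5.48 ± 0.51, adjusted p = 0.000107). The purine synthesis enzymes Gart and Pfas, the nucleoside diphosphate kinase Nme1 and the mitochondrial one-carbon enzyme Mthfd1l rose with log2 fold changes of 2.90, 2.76, 3.36 and 2.64.

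Energy metabolism genes were higher in both main branches. Of 25 glycolysis genes 17 rose and none fell (median log2 fold change 2.17). Ldha, which turns pyruvate into lactate, was at 2197 and 2391 CPM at 60 h, against 149.7 and 116 CPM in uninjured cells (log2 fold change 4.11 ± 0.34, adjusted p = 7.83e-05), and Eno1, the common enolase, at 3283 and 3286 CPM at 60 h, against 248 and 232 CPM in uninjured cells (log2 fold change 3.78 ± 0.31, adjusted p = 7.83e-05). Eno3, the enolase of muscle, was at 569 and 584 CPM at 60 h, against 16.5 and 9.44 CPM in uninjured cells, with a log2 fold change of 5.48 ± 0.41; Tpi1 and Pgk1 rose by 3.83 and 3.63 on the same scale. Of 36 nuclear genes of oxidative phosphorylation, 33 rose and none fell (median 1.66). Cycs, cytochrome c, was at 446 and 426 CPM at 60 h, against 31.2 and 33.4 CPM in uninjured cells (log2 fold change 3.75 ± 0.27, adjusted p = 5.89e-05), and Sdhb, a subunit of succinate dehydrogenase, at 342 and 336 CPM at 60 h, against 55.9 and 61.99 CPM in uninjured cells. Mitochondrially encoded genes other than ribosomal RNA went the other way as a share of counts, at 2.25% and 2.35% at 60 h, against 5.44% and 3.94% in uninjured cells. Fatty acid oxidation changed less, with 10 of 25 genes higher and 1 lower (median 0.70). The dehydrogenase Acadl was at 149.8 and 151 CPM at 60 h, against 40.1 and 32.2 CPM in uninjured cells (log2 fold change 2.06 ± 0.35, adjusted p = 0.00137), and Hadha of the trifunctional protein rose by 1.19 ± 0.20 on the log2 scale. The fatty acid receptor Ppard fell (log2 fold change -2.33 ± 0.42).

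Of 24 cholesterol synthesis genes 15 rose and 1 fell, with a median log2 fold change of 2.07. Fdps, which makes farnesyl pyrophosphate, was at 231 and 249 CPM at 60 h, against 11.6 and 31.1 CPM in uninjured cells (log2 fold change 3.48 ± 0.52, adjusted p = 0.000768), and Mvd, a decarboxylase of the mevalonate pathway, at 33.6 and 30.6 CPM at 60 h, against 7.40 and 7.60 CPM in uninjured cells (adjusted p = 0.000547). Both 60 h libraries lay above both uninjured ones for each gene.

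All 31 proteasome genes and all 24 heat shock and chaperonin genes rose, with median log2 fold changes of 2.36 and 3.05. Psmd12, a lid subunit of the proteasome, was at 272 and 273 CPM at 60 h, against 28.7 and 37.9 CPM in uninjured cells (log2 fold change 3.03 ± 0.31, adjusted p = 0.000143), and the catalytic subunit Psmb5 and the ATPase Psmc1 rose by 2.56 and 2.79 on the log2 scale. Hspa8, the constitutive HSP70, was at 4001 and 4113 CPM at 60 h, against 408 and 367 CPM in uninjured cells (log2 fold change 3.39 ± 0.39, adjusted p = 0.000224). Hspd1, the mitochondrial HSP60, was at 915 and 1054 CPM at 60 h, against 58.8 and 66.5 CPM in uninjured cells, and its partner Hspe1 at 564 and 534 CPM at 60 h, against 66.8 and 72.8 CPM in uninjured cells. The chaperonin subunits Cct8 and Tcp1, which fold actin and tubulin, rose by 3.28 and 3.26 on the log2 scale. The summed level of the heat shock list was 19730 and 21500 CPM at 60 h, against 3918 and 3828 CPM in uninjured cells.

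Growth factor receptors and their feedback genes were lower in 12 of 28 cases and higher in 4 (median log2 fold change -1.44). The FGF receptor Fgfr1 was at 166 and 179 CPM at 60 h, against 1137 and 1032 CPM in uninjured cells (log2 fold change -2.65 ± 0.29, adjusted p = 0.000191). Igf1r, the receptor of insulin-like growth factors, was at 33.8 and 27.04 CPM at 60 h, against 151 and 193 CPM in uninjured cells, and its adaptor Irs2 at 13.6 and 18.6 CPM at 60 h, against 72.2 and 76.2 CPM in uninjured cells. Both were lower in both 60 h libraries (log2 fold changes -2.50 and -2.20). Met, the receptor of the hepatocyte growth factor that activates satellite cells, rose to 238 and 276 CPM at 60 h, against 34.4 and 41.1 CPM in uninjured cells (log2 fold change 2.77 ± 0.23, adjusted p = 7.83e-05). Etv4, a transcription factor induced by FGF and MAP kinase signalling, was at 33.9 and 37.03 CPM at 60 h, against 0 and 0.921 CPM in uninjured cells, higher together with the MAP kinase phosphatase Dusp6 while Spry1 was lower. Of 29 TGF-beta and BMP genes tested, 14 fell and 5 rose (median -0.89). The ligand Bmp4 was at 23.6 and 21.5 CPM at 60 h, against 230.3 and 211 CPM in uninjured cells, and Bmp6 at 4.36 and 2.41 CPM at 60 h, against 97.03 and 65.7 CPM in uninjured cells. Log2 fold changes were -3.29 ± 0.31 for Bmp4 and -4.58 ± 0.38 for Bmp6. The procollagen protease Bmp1 and the activin receptor Acvr2b fell with log2 fold changes of -3.39 and -4.11. The 5 that rose were the BMP targets Id1, Id2 and Id3, the decoy receptor Bambi and the activin antagonist Fst, a count that became 2 without uninjured library 2.

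Of 19 circadian clock genes 14 fell and 1 rose, with a median log2 fold change of -2.31; the labels give no hour of day for any library, so the hour and the injury cannot be told apart. Nr1d1, a repressor of the core loop, was at 86.1 and 90.7 CPM at 60 h, against 1367 and 1294 CPM in uninjured cells (log2 fold change -3.91 ± 0.29, adjusted p = 6.31e-05). Per1, of the negative limb, was at 144 and 213 CPM at 60 h, against 929 and 631 CPM in uninjured cells. Tef, an output transcription factor, was at 11.4 and 11.8 CPM at 60 h, against 155 and 139.9 CPM in uninjured cells, and Hlf, of the same family, at 0 and 0.386 CPM at 60 h, against 28.4 and 22.9 CPM in uninjured cells. All lay lower in both 60 h libraries. Rora, the activator that competes with Nr1d1, and the repressor Cry2 fell with log2 fold changes of -3.37 and -2.31. The core factors Arntl, Clock and Cry1 were not called, and Nfil3, which opposes Tef and Hlf at their sites, rose.

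Primary cilium and Hedgehog genes fell in 12 of 28 cases and rose in 2 (median log2 fold change -0.96). Gli1, a transcription factor of Hedgehog signalling and its target, was at 1.41 and 0.966 CPM at 60 h, against 22.6 and 28.4 CPM in uninjured cells, and Gli2, another factor of the pathway, at 12.3 and 12.02 CPM at 60 h, against 222 and 208 CPM in uninjured cells. The receptor and target Ptch1 was at 37.5 and 34.2 CPM at 60 h, against 86.4 and 96.3 CPM in uninjured cells, and all 3 genes were lower in both 60 h libraries, with log2 fold changes of -4.42, -4.14 and -1.35. The ciliary motor Dync2h1 and the basal body protein Dzip1 fell with log2 fold changes of -1.85 and -3.10. Smo and Sufu were not called. The count of 12 became 7 without the first 60 h library.

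Of 21 imprinted genes tested, which are expressed from 1 parental copy and many of which control growth, 9 fell and 1 rose (median log2 fold change -1.19). Meg3, Rian, Mirg and Rtl1 lie in one cluster on chromosome 12. Meg3, its maternally expressed long RNA (chr12:109541001-109571726, plus strand, GRCm38), was at 22.6 and 27.2 CPM at 60 h, against 1660 and 1071 CPM in uninjured cells (log2 fold change -5.78 ± 0.42, adjusted p = 5.89e-05), Rian, the host of small nucleolar RNAs, at 9.41 and 13.3 CPM at 60 h, against 392 and 248 CPM in uninjured cells, and Mirg, the host of microRNAs, at 0.291 and 0.531 CPM at 60 h, against 133 and 63.1 CPM in uninjured cells. Rtl1, of the paternal copy, was at 2.04 and 0.966 CPM at 60 h, against 113 and 65.6 CPM in uninjured cells, a value that may include reads of the gene antisense to it, since the strand of counting is not given. All of these were lower by more than an order of magnitude, in both 60 h libraries, while Dlk1 of the same cluster was not called. Peg3, a zinc finger protein abundant in quiescent satellite cells, was at 1409 and 1502 CPM at 60 h, against 4872 and 5064 CPM in uninjured cells (log2 fold change -1.77 ± 0.28, adjusted p = 0.000932). Peg10, a gene of retrotransposon origin, rose to 31.9 and 30.9 CPM at 60 h, against 1.04 and 2.30 CPM in uninjured cells (log2 fold change 4.18 ± 0.59, adjusted p = 0.000563). The growth factor Igf2 was at 82.3 and 72.5 CPM at 60 h, against 154 and 199 CPM in uninjured cells (adjusted p = 0.0608).

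Genes of the extracellular matrix were lower in 15 of 29 cases and higher in 6 (median log2 fold change -1.10). The basement membrane collagen Col4a1 was at 41.8 and 50.5 CPM at 60 h, against 364 and 251 CPM in uninjured cells, and its partner chain Col4a2 at 27.7 and 34.4 CPM at 60 h, against 267 and 162 CPM in uninjured cells. The laminin subunit Lamc1 was at 59.3 and 56.4 CPM at 60 h, against 288 and 286 CPM in uninjured cells, so that network collagen and laminin genes were lower together (-2.74 ± 0.26, -2.79 ± 0.29 and -2.31 ± 0.21 on the log2 scale). Lamb1, another laminin subunit, was the reverse, at 82.7 and 110.4 CPM at 60 h, against 15.96 and 17.96 CPM in uninjured cells (log2 fold change 2.51 ± 0.31, adjusted p = 0.0003). Tnc, tenascin C, a matrix protein of regenerating tissue, was at 80.9 and 101 CPM at 60 h, against 0 and 1.84 CPM in uninjured cells (log2 fold change 6.37 ± 0.79, adjusted p = 0.000305). The fibrillar collagen Col3a1 was at 306 and 343 CPM at 60 h, against 960.3 and 698 CPM in uninjured cells, lower at 60 h (log2 fold change -1.35 ± 0.30, adjusted p = 0.00551). Col1a2, also fibrillar, was at 198 and 204 CPM at 60 h, against 28.1 and 8.52 CPM in uninjured cells, higher at 60 h (log2 fold change 3.48 ± 0.63, adjusted p = 0.00208). Both are in the fibroblast marker list, of which 6 fell and 2 rose, and the part of fibroblasts in these changes was not tested. The call of Col3a1 was lost without the first 60 h library. Col5a1 fell by 2.85 on the log2 scale.

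Adhesion genes were mixed, with 8 of 25 higher and 9 lower (median log2 fold change 0.18). Cdh2, N-cadherin, was at 120.4 and 136 CPM at 60 h, against 3.12 and 2.02 CPM in uninjured cells (log2 fold change 5.67 ± 0.40, adjusted p = 5.76e-05), and the laminin receptor subunit Itga3 at 98.97 and 132 CPM at 60 h, against 10.9 and 9.32 CPM in uninjured cells (log2 fold change 3.52 ± 0.42, adjusted p = 0.000275). Dmd, dystrophin, which links the cytoskeleton to the matrix, was at 27.8 and 40.1 CPM at 60 h, against 383 and 417 CPM in uninjured cells (log2 fold change -3.56 ± 0.39, adjusted p = 0.000187), and its partner Sgca, alpha-sarcoglycan, at 13.7 and 11.4 CPM at 60 h, against 112 and 121 CPM in uninjured cells. The cadherins Cdh13 and Cdh4 fell with log2 fold changes of -2.04 and -5.10. The count of 8 rises became 4 or 5 when any of the 4 libraries was left out.

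Of 37 chromatin genes tested, 13 rose and 19 fell (median log2 fold change -0.98). Of those that rose, the histone variant H2afz was at 1294 and 1281 CPM at 60 h, against 67.9 and 66.8 CPM in uninjured cells (log2 fold change 4.26 ± 0.39, adjusted p = 0.000102), the DNA-bending protein Hmgb2 at 257 and 263 CPM at 60 h, against 9.02 and 4.55 CPM in uninjured cells, and the histone chaperone Asf1b at 109 and 95.6 CPM at 60 h, against 0.694 and 1.78 CPM in uninjured cells. Hmga2, an architectural protein of embryonic and dividing stem cells, was at 95.6 and 72.3 CPM at 60 h, against 0.231 and 0.576 CPM in uninjured cells (log2 fold change 7.54 ± 0.67, adjusted p = 8.88e-05). Hells, a remodeller needed for DNA methylation, rose by 3.91 ± 0.30 on the log2 scale. The methyltransferases of the Polycomb complex went in opposite directions. Ezh2 was at 54.4 and 53.5 CPM at 60 h, against 21.6 and 18.4 CPM in uninjured cells (log2 fold change 1.43 ± 0.22, adjusted p = 0.000976) and its homologue Ezh1 at 16.5 and 22.1 CPM at 60 h, against 116 and 124 CPM in uninjured cells (log2 fold change -2.63 ± 0.25, adjusted p = 0.000108). The other genes that fell include Kmt2a, Kmt2b, Kmt2c and Kmt2d, which methylate lysine 4 of histone H3, the demethylases Kdm6a and Kdm6b, and Tet1, Tet2 and Tet3, which oxidise 5-methylcytosine.

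Immediate early genes, which are induced by stimuli without new protein synthesis, were mostly uncalled at 60 h, with 7 of 25 higher and 1 lower (median log2 fold change 0.81). Fos was at 51.7 and 157 CPM at 60 h, against 113 and 67.00 CPM in uninjured cells, and the groups overlapped (adjusted p = 0.834). Myc, the growth regulator, was at 363 and 346 CPM at 60 h, against 216 and 209 CPM in uninjured cells (adjusted p = 0.253). Fosl1, the Fra-1 subunit of AP-1, was at 152 and 95.98 CPM at 60 h, against 1.27 and 0 CPM in uninjured cells (log2 fold change 8.00 ± 1.38, adjusted p = 0.00157), Egr2, a zinc finger factor, at 17.5 and 44.9 CPM at 60 h, against 5.09 and 2.71 CPM in uninjured cells, and Ier3 at 29.6 and 81.8 CPM at 60 h, against 9.95 and 6.91 CPM in uninjured cells. The 60 h libraries of Egr2 and Ier3 were far apart, the second above the first. Jund fell by 1.89 on the log2 scale, Ier5 rose by 3.55, and Klf2, at 1.99 and 2.70 CPM at 60 h and 0 in uninjured cells, was at least 20.4-fold higher. The count of 7 became 3 without the second 60 h library or without either uninjured library.

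Lysosome and autophagy genes showed no common direction, with 5 of 28 higher and 7 lower (median log2 fold change 0.00). The cathepsin Ctsl was at 608 and 613 CPM at 60 h, against 49.1 and 82.9 CPM in uninjured cells, the cathepsin Ctsd at 446 and 303 CPM at 60 h, against 97.4 and 96.3 CPM in uninjured cells, and the lysosomal membrane protein Lamp1 at 288 and 304 CPM at 60 h, against 55.5 and 87.8 CPM in uninjured cells. All 3 were higher in both 60 h libraries (3.21 ± 0.34, 1.95 ± 0.29 and 2.04 ± 0.34 on the log2 scale). Macrophages, whose markers were higher at 60 h, express them as well, and the part of those cells in these changes was not tested. Ulk1, the kinase that starts autophagy, and Map1lc3a, a protein of the autophagosome, fell with log2 fold changes of -2.75 and -1.77. Interferon response genes were lower in 9 of 29 cases and higher in 2 (median -0.87). Stat2, of the complex that interferon activates, was at 3.25 and 4.73 CPM at 60 h, against 9.02 and 21.5 CPM in uninjured cells, and its partner Irf9 at 2.81 and 2.70 CPM at 60 h, against 5.78 and 21.4 CPM in uninjured cells, with uninjured library 2 well above library 1. Ifit1, a target of that complex, was at 0.242 and 0 CPM at 60 h, against 4.51 and 1.78 CPM in uninjured cells (log2 fold change -4.62 ± 1.28, adjusted p = 0.0162), and the immunoproteasome subunit Psmb10 at 52.4 and 42.8 CPM at 60 h, against 20.5 and 18.8 CPM in uninjured cells (log2 fold change 1.28 ± 0.38, adjusted p = 0.0213). The call of Psmb10 was lost when any of the 4 libraries was left out. The count of 9 fell to 2 and 5 without the first and the second 60 h library, and to 5 and 3 without uninjured library 1 and 2.

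Several genes outside the lists fell by large factors. Ryr3, a calcium release channel, was at 23.3 and 14.8 CPM at 60 h, against 2081 and 2037 CPM in uninjured cells (log2 fold change -6.76 ± 0.93, adjusted p = 0.000526), and Hmcn2, hemicentin 2, a matrix protein of the immunoglobulin superfamily, at 111 and 109 CPM at 60 h, against 6609 and 4945 CPM in uninjured cells (log2 fold change -5.72 ± 0.33, adjusted p = 3.46e-05). Tnxb, tenascin X, was at 4.66 and 7.58 CPM at 60 h, against 414 and 361 CPM in uninjured cells, and the actin-binding membrane protein Clmn at 13.8 and 9.66 CPM at 60 h, against 626 and 695 CPM in uninjured cells. Each was far lower in both 60 h libraries than in either uninjured one. The adenylate cyclase Adcy2, the potassium channel Kcnma1, the calcium channel Cacna1d and tau, Mapt, fell with log2 fold changes of -6.13, -5.98, -5.68 and -6.03. Among the largest rises were genes with no count in uninjured cells: the calcium-activated potassium channel Kcnn4 at 50.96 and 46.8 CPM at 60 h (at least 424-fold higher), the small GTPase Rrad (at least 449-fold), the actin nucleator Fmn1 (at least 310-fold), the MAP kinase phosphatase Dusp9 (at least 300-fold), the muscle caveolar protein Cavin4 (at least 295-fold) and the cytokine Il33 (at least 279-fold). Sept2, a septin of the cytokinesis ring, headed the list of rises through only 1 of its 2 identifiers, with 323 and 658 CPM at 60 h and 0 in uninjured cells. The other identifier was at 343 and 57.3 CPM at 60 h, against 267 and 272 CPM, and the sum of both at 666 and 716 CPM at 60 h, against 267 and 272 CPM in uninjured cells. Reads can be split between them, so the change of each identifier is uncertain.

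The libraries between the 2 groups show when some of these differences arose. The summed level of the replication list was 723 and 656 CPM in uninjured cells and 1181 to 2057 CPM in the libraries of 0.5 to 16 h, above both uninjured values. The 32 h libraries had 7733 and 4953 CPM, those of 60 h 7628 and 8160 CPM. The mitosis list was at 319 and 264 CPM in uninjured cells and at 326 to 371 CPM in the libraries of 8 and 16 h. The 32 h libraries had 2552 and 2581 CPM, those of 60 h 7223 and 7325 CPM. Other lists were high earlier. Ribosome biogenesis was at 20280 and 22820 CPM at 8 h, above its 9250 and 9746 CPM at 60 h. The heat shock list was at 32210 and 33720 CPM at 8 h, above its 19730 and 21500 CPM at 60 h. The proteasome list was at 9263 and 9904 CPM at 8 h, near its 9109 and 9482 CPM at 60 h. Pax7 was at 63.7 and 41.7 CPM at 8 h, below its 60 h level, and between 59.1 and 345 CPM at 16 and 32 h. Myod1 had its highest values at 8 h, 3869 and 3812 CPM, so its 60 h level lay between those of uninjured and 8 h cells. Myog was below 1 CPM at 8 and 16 h, at 4.38 and 30.9 CPM at 32 h, and highest at 60 h. Notch1 was at 65.9 to 129 CPM at 8 to 32 h, below both its 60 h values. The libraries of 0.5 to 4 h were far apart within each time and were left out of the fit. Some libraries kept in the fit also differed within a time. Pax7 was at 98.2 and 345 CPM at 16 h and at 59.1 and 337 CPM at 32 h, and Myod1 at 1510 and 477 CPM at 32 h.

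**Figure D3:**
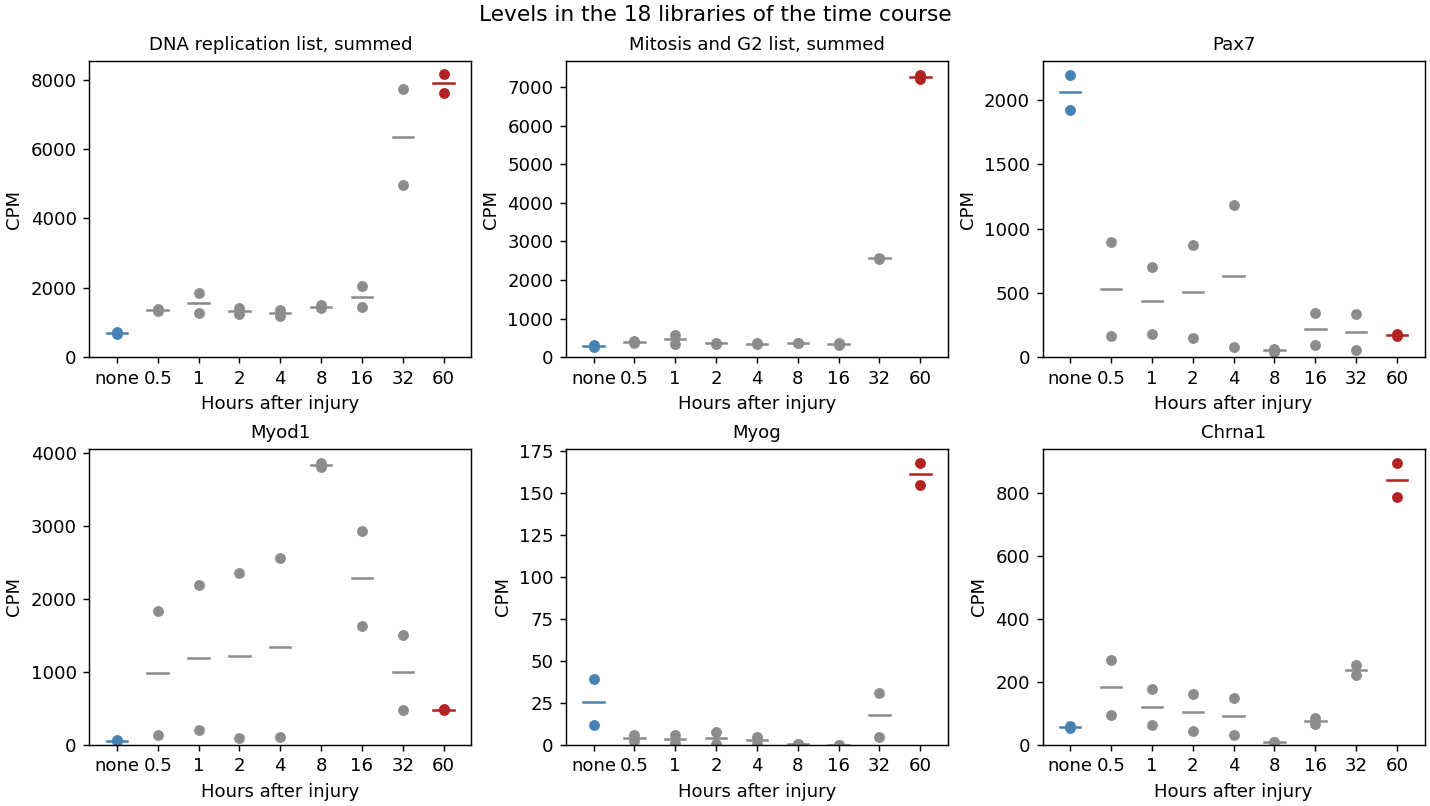
Levels in CPM on linear axes in the 18 libraries of the time course, with 1 point per library and a bar at the mean of each time; uninjured (none) in blue, 60 h in red, other times in grey. The replication list is high from 32 h and the mitosis list highest at 60 h, Pax7 highest in uninjured cells, Myod1 highest at 8 h, and Myog and Chrna1 highest at 60 h.

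Calls varied with gene length. Among protein-coding genes, those higher at 60 h (4068) had a median exonic length of 3.68 kb and those lower (3145) one of 5.94 kb, against 4.23 kb for the 7331 not called. Over 5 equal groups from the shortest to the longest genes, the share called higher was 34.2%, 35%, 30.1%, 24.6% and 16%, and the share called lower 11.9%, 14%, 18.8%, 25% and 38.5%. The median log2 fold change was 0.56 in the shortest group and -0.60 in the longest. RNA composition moved with the groups too. Malat1, a nuclear long RNA, took 0.299% and 0.257% of counts at 60 h, against 3.5% and 3.73% in uninjured cells, and protein-coding genes 94.4% and 94.5%, against 89.2% and 89.4%. The part of length and of RNA quality in the changes was not tested.

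**Figure D4:**
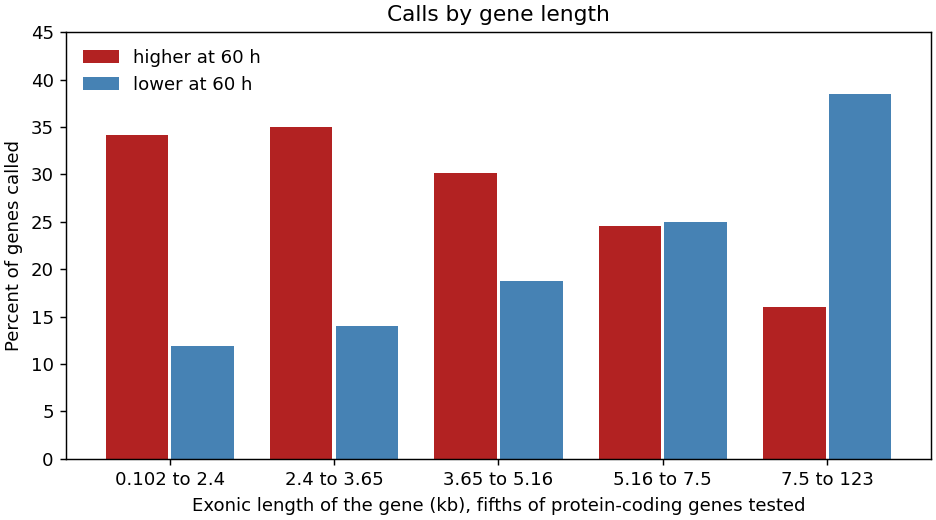
Percent of protein-coding genes called higher (red) or lower (blue) at 60 h than in uninjured cells, in 5 equal groups by exonic length in kb. The share called higher is 34.2% in the shortest group and 16% in the longest, and the share called lower 11.9% and 38.5%.

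A second comparison in the same series shares no library with this one. It sets oASC, old satellite cells 2.5 days after barium chloride injury, against oQSC, old uninjured satellite cells fixed in place, both from C57BL/6 mice, with 2 libraries each. The ages are not given, the label of oASC cells does not mention fixation in place, and the table was made with another annotation release. Ribosomal RNA models took 16.1% and 16% of counts in oASC, against 0.393% and 0.542% in oQSC cells. Of 30565 genes tested, 12117 (39.6%) differed, 5702 higher (18.7%) and 6415 lower (21%) in oASC, and the groups did not overlap in 30.4% of genes on the higher and 37.8% on the lower side. Of 20477 identifiers tested in both, 4831 were higher at 60 h and 5484 in oASC, and 2621 in both, which is 54.3% of the first and 47.8% of the second. For lower genes, 2103 were shared, 47.1% of the 4466 that fell at 60 h and 42.3% of the 4971 that fell in oASC. In opposite directions were 475 genes higher at 60 h and lower in oASC, and 374 lower at 60 h and higher in oASC.

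Cell division genes were higher in oASC as well, with 57 of 58 replication genes and 59 of 60 mitosis genes higher. Of the quiescence list 15 of 23 members were lower, and Pax7 was at 9.71 and 9.36 CPM in oASC, against 79.2 and 66.4 CPM in oQSC cells. Chrna1 was at 591 and 555 CPM in oASC, against 64.1 and 60.5 CPM in oQSC cells. Both genes had the direction seen at 60 h, with log2 fold changes of -2.93 ± 0.21 and 3.20 ± 0.20 in old cells. Myod1, by contrast, was at 816 and 624 CPM in oASC, against 1002 and 1402 CPM in oQSC cells, and Notch1 at 61.6 and 44.2 CPM in oASC, against 50.4 and 69.5 CPM in oQSC cells. Neither passed the threshold there (adjusted p = 0.117 and 0.579), and the difference between the comparisons was not tested. Some other lists had fewer members higher in oASC than at 60 h. Of the proteasome list 12 of 31 members were higher and 1 lower, of ribosome biogenesis 12 of 40 higher and 7 lower, and of heat shock and chaperonin genes 7 of 24 higher and 10 lower. Of 25 immediate early genes 20 were lower in oASC, with Fos at 323 and 181 CPM in oASC, against 2435 and 2597 CPM in oQSC cells, and of 30 interferon response genes 21 were lower. The clock list was alike in count, with 13 of 19 members lower.

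**Figure D5:**
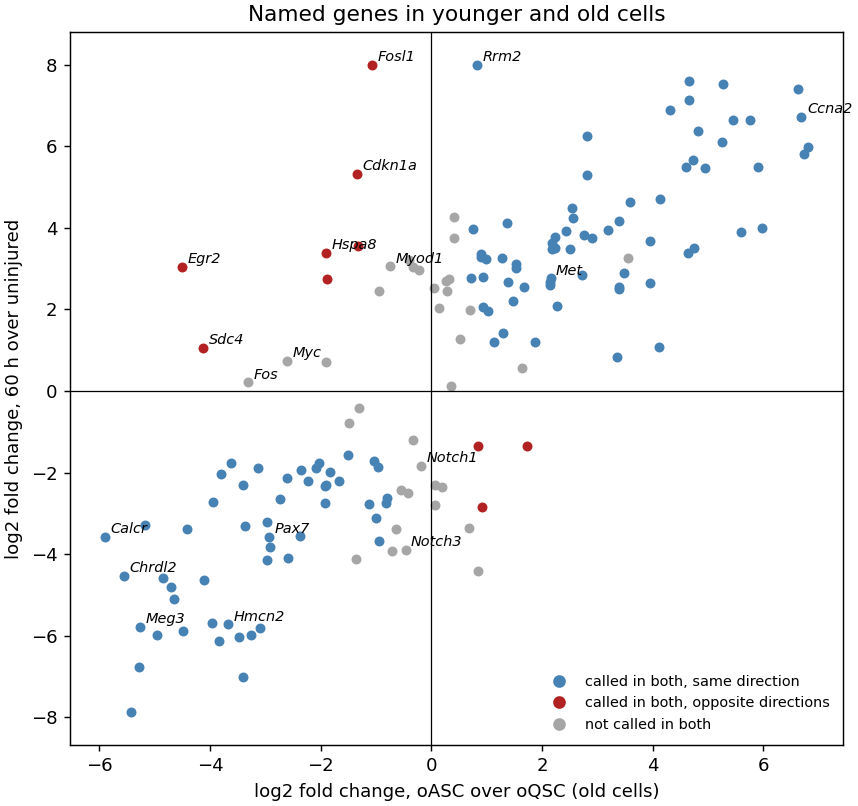
Log2 fold change of named genes at 60 h over uninjured cells (vertical) against oASC over oQSC cells (horizontal), 1 point per gene; genes without a count in a whole group are not drawn. Most genes called in both comparisons lie in the upper right or lower left; Fosl1, Cdkn1a, Hspa8, Egr2 and Sdc4 were higher at 60 h and lower in oASC.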

How the data were processed

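Counts per gene in 18 libraries of the time course and 6 of old cells were deposited by the authors as whole numbers, not normalized. Per the labels, polyadenylated RNA was extracted with an FFPE kit, amplified with SMART-Seq v4, made into libraries with Tn5 and sequenced as pairs of 100 cycles. Per the submitters' processing notes, Trimmomatic 0.36, HISAT2 2.1.0, SAMtools 1.3, StringTie 1.3.3 and the mm10 genome were used; the counting program, its strand setting and its annotation are not stated there. Overlapping genes and near-identical copies may therefore share reads, and amplified copies are counted. Members and gene lists were chosen with earlier results of these data known.

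From these counts, 361 models overlapping ribosomal RNA were removed (195 had counts), because their share differed between libraries. Genes passing filterByExpr (minimum count 10) were scaled by TMM over 18 libraries and tested with the quasi-likelihood F test of edgeR 4.0.16 in R 4.3.3, with limma 3.58.1. The fit held 10 libraries (uninjured, 8, 16, 32 and 60 h; common dispersion 0.158) and 21576 of 55450 genes. The old cells were fitted apart on 6 libraries. Calls required an adjusted p (Benjamini-Hochberg) under 0.05; SE is the absolute log2 fold change over the square root of F. Named genes are a selection, made after their values were seen, from 240 genes: a panel, the 15 largest rises and falls (called, groups apart, the higher one averaging 20 CPM or more), and up to 6 members per list with the smallest adjusted p. Other genes are named only with their call, and some list members are not reported by name here.

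Alternatives were ribosomal RNA models kept, Lars2 or mitochondrially encoded genes removed, RLE size factors, no filter, DESeq2 1.42.0, all 18 or only 4 libraries in the fit, the replicate number as a block, and each library left out. The test was also run on simulated counts in which few genes changed, up and down alike. Far more genes were called in these data, so that run cannot check the fit at this scale.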

Additional observations from a re-analysis of the deposited data

Results flagged for a closer look

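The genes given here were called in both the comparison of 60 h with uninjured cells and that of oASC with oQSC cells, in opposite directions, with every library of the higher group above every library of the other. The difference between the 2 comparisons was not tested. They were fitted apart and with different annotation releases, so CPM levels can be set side by side only roughly.

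Cdkn1a, the p21 inhibitor, had a log2 fold change of 5.33 at 60 h over uninjured cells and of -1.34 in oASC over oQSC cells. It was at 519 and 511 CPM in oASC, against 1404 and 1205 CPM in oQSC cells. In the time course, Cdkn1a did not rise steadily. Uninjured libraries held 14.7 and 8.23 CPM of it. Its highest values, 1420 and 1337 CPM, were those of the 8 h libraries. The 32 h libraries had 403 and 297 CPM, those of 60 h 436 and 477 CPM. The chaperone Hspa8 had 3.39 at 60 h and -1.90 in oASC. It was at 3300 and 3833 CPM in oASC, against 14150 and 12500 CPM in oQSC cells. Uninjured libraries held 408 and 367 CPM of Hspa8, those of 8 h 7849 and 8150 CPM, and those of 60 h 4001 and 4113 CPM. The syndecan Sdc4 had 1.06 at 60 h and -4.12 in oASC. It was at 1019 and 958 CPM in oASC, against 19070 and 15390 CPM in oQSC cells. Time course levels of Sdc4 were 738 and 936 CPM without injury. The 8 h libraries had 13380 and 15520 CPM, those of 60 h 1624 and 1871 CPM. For each of these genes, uninjured and oQSC levels lay further apart than 60 h and oASC levels. Why the controls differ was not tested.

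Among stimulus-induced genes, log2 fold changes at 60 h and in oASC were 8.00 and -1.07 for Fosl1, 3.04 and -4.51 for Egr2, 2.74 and -1.89 for Ier3, and 3.55 and -1.32 for Ier5. The Hedgehog receptor Ptch1 had -1.35 at 60 h and 0.84 in oASC. The collagens Col5a1 and Col3a1 had -2.85 and -1.35 at 60 h, against 0.92 and 1.73 in oASC. For all of these genes too, levels lay further apart between uninjured and oQSC cells than between 60 h and oASC cells. The identifier of Sept2 without a count in uninjured cells had a fitted value of 16.48 at 60 h, which depends on the prior count and is no bound, and -1.89 in oASC; its reads can be split between 2 identifiers.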

How the results depend on the processing

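The count of 9529 genes called at 60 h was 9460 with the ribosomal RNA models kept (5191 higher, 4269 lower), 9518 with Lars2 removed, 9492 with mitochondrially encoded genes removed, 9558 with RLE size factors, 9608 with no filter and 10453 with DESeq2. It was 10242 with only the 4 libraries in the fit and 6367 with all 18. It ranged from 6445 to 7111 with 1 of the 4 libraries left out, where the lone library of a group is assumed to vary like the other groups. The count stayed within 1.5 times in each of these, no called gene was called in the other direction, and 65.1% to 99.9% of the calls remained. The 12117 calls in oASC ranged from 8476 to 12511. The 2 libraries of a group share only a number with those of the other groups. Deviations from the group means had a correlation of -0.004 between uninjured and 60 h libraries, so the numbers were not taken to pair these samples. Among the groups of the fit the correlation was highest between 16 and 32 h, at 0.219. With the replicate block 8962 genes were called. Of the 170 called genes selected for the text, all kept their call with the block and under each alternative but 2 kinds: 14 lost it with all 18 libraries (Pax7, Fgfr4, Sdc4, Myod1, Myog, Des, Ccnd1, E2f4, Nhp2, Rrp9, Dync2h1, Fosl1, Psmb10 and Sept2), and 6 to 11 when 1 library was left out. With all 18 libraries the adjusted p was 0.0625 for Pax7 and 0.17 for Myod1. Beside the losses given in the report, Des lost its call without either 60 h library or uninjured library 2, Jund without either 60 h library or uninjured library 2, Egr2 and Ier3 without the second 60 h library or either uninjured one, Stat2 without the first 60 h library or uninjured library 2, Irf9 without either 60 h library or uninjured library 2, and Ifit1 without the second 60 h library or uninjured library 1. Among uncalled genes the direction turned for Fos without the second 60 h library (-0.78) and uninjured library 2 (-0.10), and for Cd34 and Cdkn1c without uninjured library 2; with 1 library left out, log2 fold changes ranged from -0.78 to 0.82 for Fos, -0.85 to 0.23 for Cd34 and -0.48 to 1.25 for Cdkn1c. Fits with all 18 libraries also lowered the counts of G1 (7 higher), fatty acid oxidation (5 higher), TGF-beta and BMP (9 lower), cilium and Hedgehog (5 lower) and interferon genes (4 lower). The cause was not tested. Depth limits genes of low level, since the uninjured libraries held 6.79 and 13.4 M counts; with 2 libraries per group, small changes can be missed.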
